A study of Mus musculus with 27 samples.

Results

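The loss of TRAP1 was followed in unpolarized macrophages (Mφ) kept in the conditioned medium of malignant peripheral nerve sheath tumor cells (MPNST-CM). The comparison took 6 of the 27 libraries of the series, 3 of TRAP1 KO Mφ and 3 of WT Mφ, chosen by their labels for genotype, cell type, medium and batch. Of 50559 genes in the count table, 13614 passed a filter on low counts and were tested. Bone marrow came from female C57BL/6 mice aged 3 to 4 months that were either wild-type or deficient for TRAP1 in the whole animal. Marrow cells were differentiated for 4 days and, with medium added, for 3 further days, and the resulting Mφ received MPNST-CM for 48 h, renewed after 24 h. The medium had been conditioned by sMPNST cells, a mouse line derived from skin precursors that lack Nf1 and p53. RNA was read from its 3′ end. No source states that replicates came from separate animals, so that p-values measure the spread between these libraries, which may be technical.

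TRAP1 is the mitochondrial paralog of the HSP90 chaperones. It binds succinate dehydrogenase (SDH, respiratory complex II) and lowers its activity, so that succinate builds up. Succinate inhibits the prolyl hydroxylases that mark the transcription factor HIF-1α for degradation, and HIF-1α drives genes of glycolysis, angiogenesis and adaptation to low oxygen. Macrophages that infiltrate a tumor can acquire functions that favor its growth, and this question of what TRAP1 contributes to the response to tumor-derived factors is the one that the comparison addresses.

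The 6 libraries held 7688771 to 8452051 counted reads. Values are given as CPM, the counts scaled to a common library size with edgeR's TMM factors, and fold changes as log2 of TRAP1 KO over WT, so that negative values mean lower levels in TRAP1 KO. A difference was called at a Benjamini-Hochberg adjusted p under 0.05 (edgeR's quasi-likelihood test). Replicate 1 stood apart in both genotypes. Over genes with at least 20 counts in a pair, chi-square per degree of freedom was 26.5 and 23.2 between WT replicate 1 and the others against 2.75 between WT replicates 2 and 3, and 21.4 and 21.7 against 2.99 in TRAP1 KO. Reads on mitochondrial transcripts made up 4.59% to 4.89% in replicate 1 and 3.33% to 3.72% in the others. A count of genes is therefore also given without replicate 1 of any group, a setting chosen after the data were seen, where it moved by over 1.5 times. Over all genes, 5141 differences were called without replicate 1, and 4445 of them were among those called with it. The 10 macrophage markers summed to between 9180 and 9600 CPM in WT and between 10900 and 12600 CPM in TRAP1 KO. Markers of T, B, mast, erythroid and stromal cells summed to at most 3.92 CPM in any of the 6 libraries, with 5 of 8 T and NK cell markers at 0 in all of them, and the mast cell markers went from 2.32 to 3.23 CPM in WT to 0.122 to 0.637 CPM in TRAP1 KO. Markers of Schwann cells summed to between 71.4 and 101 CPM, with 3 of 6 past the filter and Ngfr at 0. Those of osteoclasts summed to between 67.6 and 81.5 CPM, with 6 of 8 past the filter and Calcr at 0. Endothelial markers, with 2 of 5 past the filter, summed to between 61.7 and 71.7 CPM in WT against 46.9 to 47.4 CPM in TRAP1 KO. Neutrophil markers summed to between 10.5 and 13.9 CPM, and dendritic cell markers to between 7.49 and 9.27 CPM in WT against 11.6 to 14 CPM in TRAP1 KO. The part of other cells in the results below was not tested, and in bulk samples fewer cells of a type and less RNA per cell cannot be told apart.

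Trap1, the targeted gene, was read at 16.7, 11.2 and 13.7 CPM in the 3 WT libraries and had 0 counts in the 3 TRAP1 KO libraries. With a floor of 3 counts per library (0.365 to 0.382 CPM), it was at least 37.0-fold lower in TRAP1 KO (adjusted p = 1.04e-11). Among its 10 nearest tested neighbours on each side, by the order of genes in RefSeq, Zfp263 (0.66) and Cluap1 (0.55) were called higher and Tfap4 (-1.22) lower. Xist, the RNA that coats the inactive X chromosome, was also nearly absent from TRAP1 KO. It was read at 408, 297 and 307 CPM in WT and at 0.374, 0.730 and 0.127 CPM in TRAP1 KO, although all mice of the study were described as female. The X-linked genes Pbdc1 (-1.04 ± 0.09, SE) and Eif2s3x (-0.93 ± 0.18) fell, and Kdm6a (-0.44), Kdm5c (-0.11) and Ddx3x (-0.13) did not pass. Over the X chromosome 20.4% of 452 genes were lower and 15.5% higher, against 19.2% and 19.1% over all genes tested. In these libraries the loss of Xist and the TRAP1 genotype cannot be told apart.

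A large share of the transcriptome of Mφ in MPNST-CM differed between TRAP1 KO and WT. Of 13614 genes, 5207 (38.2%) were called, 2598 higher (19.1%) and 2609 lower (19.2%) in TRAP1 KO. Changes of at least 4-fold were mostly decreases, with 115 genes higher and 470 lower, whereas under 2-fold there were 2029 higher and 1508 lower. The median absolute log2 fold change of the called genes was 0.70. In 46.1% of genes the ranges of the 3 WT and 3 TRAP1 KO libraries did not overlap. Testing against a log2 fold change of 1 in either direction (edgeR's glmTreat) left 189 genes higher and 574 lower. When the 3 libraries of another batch, none of them from these groups, were added to the fit without a batch term, 1296 genes were higher and 1801 lower. A note not found in the study set 2 libraries of this batch apart from their labels. For that reason the batch was left out of the main fit. Its TRAP1 KO library of IL-4-treated (M2) cells in control medium held 1.83% mitochondrial reads, against 6.29% to 7.39% in the other libraries of that group. All libraries in a fit share the estimate of spread. In this 27-library fit 61 of the 200 called genes of the lists and rankings below did not pass, among them Ddit4, Fabp4, Gdf15, Slc7a5, Tfrc and Mmp12, and none changed direction. It is named again beside the other groups and genes that it touched most. It left 1 of 8 lower lysosomal genes and 7 of 13 higher ones, 3 of 10 lower matrix protease and coagulation genes, 4 of 12 lower NRF2, iron and heme genes, 3 of 9 higher IL-4 genes and 2 of 7 lower chaperones of the endoplasmic reticulum.

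**Figure D1:**
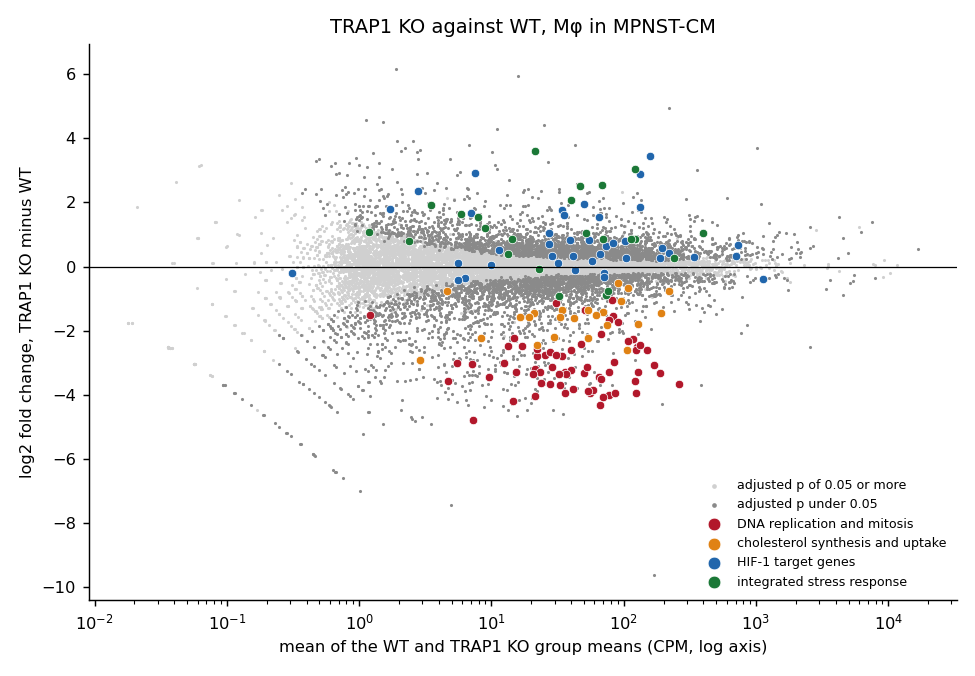
Each point is a gene, with the mean of the WT and TRAP1 KO group means in CPM on a log x axis and the log2 fold change of TRAP1 KO over WT on the y axis (3 libraries per group, Trap1 left out). Genes of DNA replication and mitosis and of cholesterol synthesis lie below 0, and most HIF-1 targets and genes of the integrated stress response lie above it. The point at -9.61 is Xist.

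Genes of the cell cycle fell together. Of 37 tested genes of DNA replication, 37 were lower in TRAP1 KO, with a median log2 fold change of -2.99 against 0.04 over all genes tested. Of 29 genes of mitosis, 29 were lower (median -3.37). Mcm5, a subunit of the replicative helicase, was read at 126, 114 and 115 CPM in WT and at 10.7, 12 and 9.68 CPM in TRAP1 KO (log2 fold change -3.45 ± 0.13, SE, adjusted p = 5.64e-17). Mki67, the proliferation marker Ki-67, was at 238, 125 and 124 CPM in WT and at 16.2, 7.30 and 8.15 CPM in TRAP1 KO (-3.94 ± 0.44, adjusted p = 1.53e-06). Replicate 1 had the highest Mki67 in each genotype, and every TRAP1 KO library lay below every WT library for both genes. Cdk1, the kinase that drives entry into mitosis, went from 221, 225 and 225 CPM to 36.9, 46.6 and 39.6 CPM (-2.45 ± 0.11). Pcna, the sliding clamp of the DNA polymerases, fell less (-2.26 ± 0.15), and Top2a, the topoisomerase that untangles replicated chromosomes, more (-3.67 ± 0.31). Top2a was again highest in replicate 1 of each genotype, with 652 CPM against 396 and 396 in WT.

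The largest decreases besides Trap1 and Xist, among called genes with a mean of at least 10 CPM in WT and no overlap between the groups, included Exo1 and Tk1 of the list of replication and mitosis. The others named next are in none of the gene lists, and a shared function was not tested. Exo1, a DNA repair exonuclease, was at 13.7, 14.1 and 14.6 CPM in WT and at 0.374, 0.487 and 0.637 CPM in TRAP1 KO (-4.78 ± 0.30). E2f7, a repressor of the E2F family (-4.68), the mitotic kinase Pbk (-4.61), the chromosomal motor Kif4 (-4.48) and Pimreg, a mitotic protein (-4.47), fell by similar factors. So did the recombination factor Rad51ap1 (-4.47), the endonuclease Ankle1 (-4.37), the cohesin acetyltransferase Esco2 (-4.35) and Dnph1, which cleaves modified nucleotides (-4.32). Tk1, the thymidine kinase of dividing cells, went from 137, 126 and 115 CPM to 6.99, 6.45 and 5.48 CPM (-4.32 ± 0.13), and Pclaf, the PCNA-associated factor, from 389, 365 and 365 CPM to 18.8, 17.5 and 20.5 CPM (-4.30 ± 0.09). The other large decreases of replication genes were those of Pole (-4.19), the catalytic subunit of a replicative polymerase, Mcm10 (-4.04) and the ribonucleotide reductase subunit Rrm2 (-4.00), and among mitotic genes that of the spindle protein Nusap1 (-4.08). The brakes of the cycle and the G1 cyclins did not move as a group, with 5 of 12 higher and 2 lower (median 0.19). Cdkn1a, the inhibitor p21, was at 647, 367 and 396 CPM in WT and at 590, 432 and 366 CPM in TRAP1 KO, and the groups overlapped (-0.02, adjusted p = 0.954). Ccnd1, cyclin D1, was at -0.95 ± 0.43 with overlapping groups and did not pass (adjusted p = 0.0991).

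Promoters of these genes carry known sequence motifs, which were counted in RefSeq promoters (build GRCm38.p6, 250 bases before to 50 after the start, both strands) as a description of the gene groups, with no statement on any factor. An E2F site (GGCGGGAA, GCGCGAAA or GGCGCGAA) stood in 12 of the 29 replication genes with a promoter in the table, against 3.29% of 27025 genes. The cell cycle gene homology region (TTTGAA) stood in 19 of 25 mitosis genes against 20.2% of all. The core of the hypoxia response element (ACGTG) stood in 12 of 19 HIF-1 targets of glycolysis and in 14 of 17 other HIF-1 targets against 21.8%, and an amino acid response element (TGATGNAA) in 8 of 22 genes of the integrated stress response against 4.51%. Of the cholesterol genes, 1 of 16 held a sterol regulatory element (TCACNCCAC, 1.44% of all) and 16 of 16 a CCAAT box (41.1% of all). Members with a large fold change that hold such a motif before their start are shown, chosen after their values were seen, with 100 bases each, 5′ to 3′ on the strand of the gene, with the motif in capitals. Uhrf1, a reader of methylated DNA at replication forks, fell by 3.94 on the log2 scale.
Uhrf1, replication, chr17:56303237-56303336 (+): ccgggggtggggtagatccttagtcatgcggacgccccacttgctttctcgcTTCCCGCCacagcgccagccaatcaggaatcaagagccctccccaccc
Mcm5, replication, chr8:75109311-75109410 (+): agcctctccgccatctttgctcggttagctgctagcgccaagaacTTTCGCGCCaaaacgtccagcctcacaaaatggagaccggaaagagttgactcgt
Mki67, mitosis, chr7:135716425-135716524 (-): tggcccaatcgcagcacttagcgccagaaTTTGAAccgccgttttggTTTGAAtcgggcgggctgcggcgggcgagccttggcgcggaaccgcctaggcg
Hilpda, HIF-1 target, chr6:29272526-29272625 (+): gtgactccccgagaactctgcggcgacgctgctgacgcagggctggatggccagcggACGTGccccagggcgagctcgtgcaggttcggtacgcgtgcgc
Asns, integrated stress response, chr6:7693210-7693309 (-): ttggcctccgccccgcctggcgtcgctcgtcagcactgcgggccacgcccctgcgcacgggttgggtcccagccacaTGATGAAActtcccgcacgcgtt

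Genes of cholesterol synthesis and uptake fell next to those of the cell cycle. Of 23 tested, 22 were lower and 0 higher, with a median log2 fold change of -1.57. Cyp51, the lanosterol demethylase, went from 197, 177 and 170 CPM to 27.5, 31.7 and 31.1 CPM (-2.59 ± 0.10, adjusted p = 5.64e-17). The sterol reductase Hsd17b7 (-2.46), Fdps, which makes farnesyl diphosphate (-2.23), the mevalonate kinase Mvk (-2.22), the lanosterol synthase Lss (-2.19) and the squalene epoxidase Sqle (-1.84) fell as well.

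Lipid genes outside sterol synthesis moved in both directions. Of 11 genes of fatty acid synthesis 2 were higher (18.2%) and 5 lower (45.5%), against 19.1% and 19.2% over all genes. Of 19 genes of efflux, uptake and storage 7 were higher (36.8%) and 6 lower (31.6%). Lpl, the lipoprotein lipase, was at 4021, 4532 and 4415 CPM in WT and at 681, 779 and 814 CPM in TRAP1 KO (-2.51 ± 0.08, adjusted p = 2.18e-18). The fatty acid synthase Fasn (-1.76 ± 0.11), the desaturase Fads2 (-2.05 ± 0.11) and the lysosomal lipase Lipa (-1.32 ± 0.07) also fell, as did Fabp4, a carrier of fatty acids (-1.79 ± 0.16). Abca1, which exports cholesterol from macrophages, rose from 94.6, 121 and 119 CPM to 478, 481 and 473 CPM (2.10 ± 0.13, adjusted p = 1.02e-12). In the 27-library fit, 2 of the 6 decreases in efflux, uptake and storage passed.

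Most targets of HIF-1 were higher in TRAP1 KO. Of 40 tested, 28 were higher and 2 lower, with a median log2 fold change of 0.55. Vegfa, the main angiogenic growth factor, was at 21.8, 30.2 and 27.4 CPM in WT and at 256, 290 and 317 CPM in TRAP1 KO (3.44 ± 0.12, adjusted p = 4.49e-18), and the lowest TRAP1 KO library exceeded the highest WT library by far. Hilpda, a lipid droplet protein induced by hypoxia, went from 33.9, 33.2 and 27.4 CPM to 215, 233 and 247 CPM (2.88 ± 0.12). The mitophagy receptor Bnip3 rose from 14.1, 16 and 16.9 CPM to 50.1, 54.6 and 54.8 CPM (1.76 ± 0.13), and Ddit4, an inhibitor of mTORC1, by a log2 fold change of 1.96 ± 0.14. In the subgroup of glucose uptake and glycolysis 12 of 19 were higher and 2 lower, with smaller changes (median 0.33). Its members Gapdh (at most 9.03 CPM) and Eno1 (at most 7.61 CPM) had few reads in all 6 libraries, for a reason that was not tested. Slc16a3, the lactate exporter MCT4, had the largest increase, from 54.8, 59.4 and 59.7 CPM to 211, 209 and 203 CPM (1.84 ± 0.09). Slc2a1, the glucose transporter GLUT1, was at 49.3, 67.4 and 55.5 CPM in WT and at 79.6, 90.2 and 97.3 CPM in TRAP1 KO (0.63 ± 0.11, adjusted p = 2.61e-05). Pgk1 (0.32, adjusted p = 0.0258) and Ldha (0.27, adjusted p = 0.0404) were close to the threshold. Pgk1 did not pass without WT replicate 1 (0.21), TRAP1 KO replicate 2 (0.28) or TRAP1 KO replicate 3 (0.33), nor without replicate 1 of any group (0.23). Ldha passed only without TRAP1 KO replicate 1 (0.34) when single libraries were left out, and ranged from 0.19 to 0.28 without any other. Among the other hypoxia-responsive genes 17 of 22 were higher and 0 lower, and 11 were higher in the 27-library fit.

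Of 8 genes of HIF-1 and its regulators tested, 4 were higher and 0 lower. Hif1a itself was at 69.5, 78.8 and 71.5 CPM in WT and at 96.5, 108 and 109 CPM in TRAP1 KO (0.51 ± 0.08, adjusted p = 2.15e-05), and its partner Arnt rose by 0.60 ± 0.12. The prolyl hydroxylases Egln1 (0.78 ± 0.11) and Egln3 (3.04 ± 0.29) rose, the latter from 2.55, 2.42 and 2.16 CPM to 18, 19.9 and 21 CPM. Hif1a and Sdha did not pass in the 27-library fit. Levels of HIF-1α protein and of succinate were not measured in these libraries. By other assays, the study reported that both rose in MPNST-CM in Mφ with TRAP1 and did not change in TRAP1 KO Mφ. Of the SDH subunits, Sdha, the flavoprotein, was at 204, 220 and 211 CPM in WT and at 153, 169 and 178 CPM in TRAP1 KO (-0.34 ± 0.08, adjusted p = 8.97e-04), Sdhb was at -0.19 ± 0.09 (adjusted p = 0.108) and Sdhc at -0.10 ± 0.09 (adjusted p = 0.385). Sdhd was at 5.09 CPM in WT replicate 1 against 80.7 and 92.9 CPM in the other WT libraries, and its fold change of 0.69 ± 0.77 did not pass (adjusted p = 0.527). Acod1, which makes the SDH inhibitor itaconate, fell from 30.9, 32.6 and 35.6 CPM to 7.99, 7.66 and 12.6 CPM (-1.81 ± 0.17, adjusted p = 1.75e-09). The isocitrate dehydrogenases Idh3a (-1.13 ± 0.22) and Idh2 (-0.79 ± 0.09) fell, and the glutamine synthetase Glul rose (0.49 ± 0.08). In all, 2 of 19 other genes of the TCA cycle and Acod1 were higher (10.5%) and 5 lower (26.3%), against 19.1% and 19.2% over all genes. Of 19 demethylases that, like the prolyl hydroxylases, use 2-oxoglutarate, 9 were higher and 0 lower. Kdm6b, which removes methyl groups from histone H3, was the largest of them, from 2.55, 3.11 and 4.74 CPM to 13, 14.4 and 16.3 CPM (2.06 ± 0.26).

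Of 19 genes of the HSP90 family and of mitochondrial chaperones and proteases, 9 were lower, Trap1 among them, 2 were higher and 8 did not pass. Hsp90aa1, the inducible cytosolic HSP90, was at 511, 485 and 481 CPM in WT and at 203, 210 and 226 CPM in TRAP1 KO (-1.21 ± 0.08, adjusted p = 4.52e-12), Hsp90ab1 was lower by less (-0.43 ± 0.08), and Hsp90b1, the paralog of the endoplasmic reticulum, did not pass (-0.29 ± 0.13, adjusted p = 0.0811). Of 15 mitochondrial chaperones and proteases, 6 were lower (40%) and 2 higher (13.3%). Hspd1, the mitochondrial HSP60, went from 96.9, 72.8 and 68.8 CPM to 36.8, 33.9 and 34.1 CPM (-1.18 ± 0.12), its cochaperone Hspe1 fell (-0.42 ± 0.10), and Hspa9, the mitochondrial HSP70, rose from 183, 207 and 204 CPM to 238, 271 and 277 CPM (0.40 ± 0.08) but did not pass in the 27-library fit. In the mitochondrial ribosome 25 of 76 proteins were lower and 2 higher, with a median of -0.16, and Mrps6 (-1.04 ± 0.14) and Mrpl18 (-0.78 ± 0.09) had the largest decreases. Complex I (7 higher and 9 lower of 36) and complexes III to V (4 higher and 12 lower of 39) had members in both directions, with shares of 19.4% higher and 25% lower in complex I and of 10.3% and 30.8% in complexes III to V, against 19.1% and 19.2% over all genes. Log2 fold changes were less than 1 in size for all but Cox6a2, the muscle form of a subunit of cytochrome c oxidase, which had the largest increase among genes with a mean of at least 10 CPM in a group and no overlap between the groups. It was at 0.926, 0.346 and 0.216 CPM in WT and at 30.6, 31.7 and 31.1 CPM in TRAP1 KO (5.95 ± 0.33, adjusted p = 7.71e-14). Its ubiquitous counterpart Cox6a1 was at 384, 354 and 363 CPM against 312, 351 and 336 CPM (-0.14 ± 0.07, adjusted p = 0.137).

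**Figure D2:**
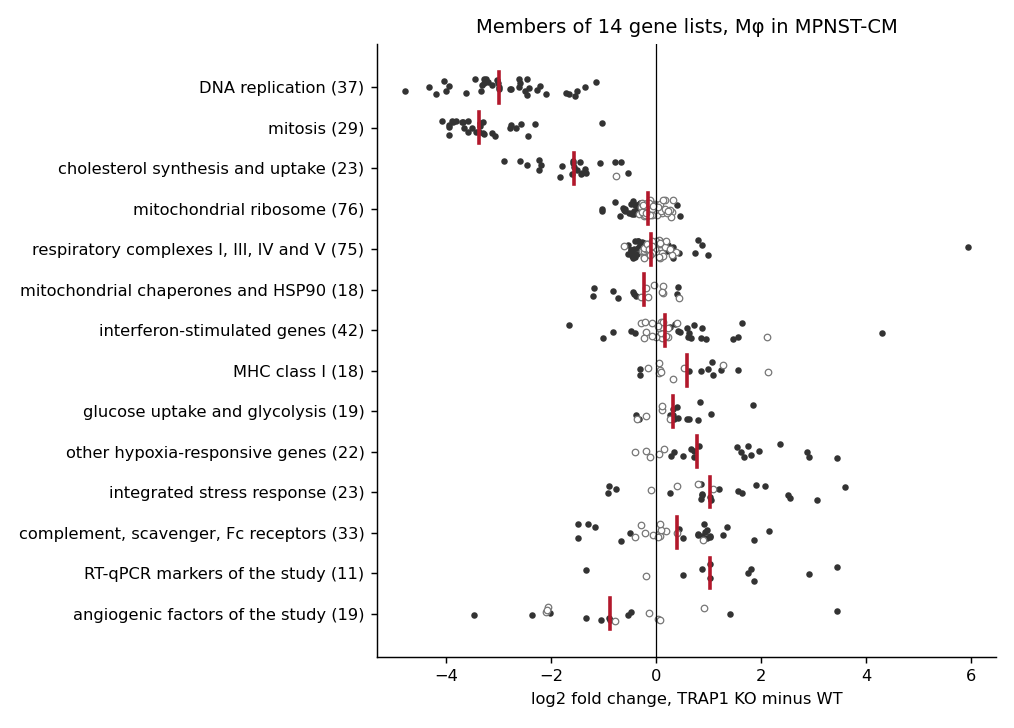
Each dot is a gene of 1 of 14 lists (number of genes in brackets; Trap1 left out) at its log2 fold change of TRAP1 KO over WT on the x axis. Filled dots have an adjusted p under 0.05, red bars are medians. The lists of replication and mitosis lie wholly below 0, and the dot at 5.95 in the row of respiratory complexes is Cox6a2.

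Genes of the integrated stress response, which is set off by the kinases that sense lack of amino acids, unfolded proteins or mitochondrial stress, rose together. Of 23 tested, 16 were higher and 3 lower, with a median log2 fold change of 1.03. Atf4, the transcription factor at its center, was at 281, 250 and 255 CPM in WT and at 562, 514 and 538 CPM in TRAP1 KO (1.04 ± 0.08, adjusted p = 8.54e-11). Trib3, a pseudokinase, rose from 4.63, 2.65 and 2.48 CPM to 34.3, 42.2 and 42.4 CPM (3.61 ± 0.26), and Atf5 from 25.8, 25.6 and 26.2 CPM to 204, 212 and 229 CPM (3.06 ± 0.12). Asns, the asparagine synthetase, rose by 2.55 ± 0.20, Nupr1 by 2.52 ± 0.16, Ddit3, which encodes CHOP, by 2.07 ± 0.15, and the amino acid transporter Slc7a5 by 1.56 ± 0.24, all without overlap between the groups. Gdf15, a cytokine that is also released upon this response, went the other way, from 83, 103 and 102 CPM to 54.9, 56.4 and 57.7 CPM (-0.77 ± 0.13, adjusted p = 4.76e-05). In the 27-library fit, 6 of the 16 increases passed, and Atf4 and Asns were not among them. Chaperones of the endoplasmic reticulum did not follow, with 4 of 20 higher (20%) and 7 lower (35%), against 19.1% and 19.2% over all genes. Hspa5, the chaperone BiP, was at 1687, 1505 and 1494 CPM in WT and at 1189, 1256 and 1303 CPM in TRAP1 KO (-0.32 ± 0.07), and Calr, calreticulin, fell by 0.95 on the log2 scale. Targets of NRF2 and genes of iron and heme were divided (9 higher and 12 lower of 30, or 30% and 40%). Nqo1, a quinone reductase, fell (-1.58 ± 0.27), and so did Tfrc, the transferrin receptor (-1.20 ± 0.09). Slc40a1, the iron exporter ferroportin, rose (0.67 ± 0.11), and Hmox1, the heme oxygenase, had overlapping groups (-0.14, adjusted p = 0.497).

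The markers that the study measured by RT-qPCR were mostly higher in TRAP1 KO. By RT-qPCR, the study reported that TRAP1 loss strongly limited the rise of M2-like markers in MPNST-CM and induced M1-like ones. It reported the rise of Hif1a mRNA as independent of TRAP1. Of 8 tested genes in the M2-like list, which here includes Hif1a, 7 were higher and 1 lower (median 1.41). For its tested members other than Tnf and Hif1a, the direction was the opposite of that report. Of 3 M1-like markers 2 were higher (median 0.88). In the 27-library fit, 5 of these 9 increases passed, and those of Arg1, Hif1a, Fcgr1 and Il1b did not. Mrc1, the mannose receptor CD206, was at 1169, 1346 and 1328 CPM in WT and at 2609, 2542 and 2659 CPM in TRAP1 KO (1.02 ± 0.07, adjusted p = 1.08e-11). Cd163, a scavenger of hemoglobin, was at 5.09, 5.19 and 5.07 CPM against 8.99, 11.7 and 10.4 CPM (1.02 ± 0.22), and Clec10a, a lectin, at 22.9, 25.7 and 27.1 CPM against 83.5, 97.5 and 95.4 CPM (1.87 ± 0.13). Mmp9, a gelatinase, rose from 1.74, 1.38 and 2.05 CPM to 12.9, 15.6 and 11.1 CPM (2.92 ± 0.18). At the protein level, the study reported that the rise of MMP-9 in MPNST-CM required TRAP1 and that of CD206 did not. Arg1, the arginase of alternative activation, was low throughout, with 0.579, 1.04 and 0.647 CPM in WT and 1.87, 1.95 and 4.20 CPM in TRAP1 KO (1.80 ± 0.49, adjusted p = 0.00599), and it did not pass without TRAP1 KO replicate 3 (1.33). The marker that fell was Tnf, a cytokine of inflammation, from 57.3, 45.1 and 52.4 CPM to 19.5, 21.5 and 19.9 CPM (-1.35 ± 0.13, adjusted p = 6.73e-09). Of the M1-like markers, Fcgr1, the high affinity Fc receptor CD64, rose from 231, 240 and 240 CPM to 399, 452 and 460 CPM (0.88 ± 0.08) and Il1b from 14.7, 12.8 and 11.3 CPM to 38.2, 44.6 and 47.6 CPM (1.75 ± 0.15). Nos2, the inducible nitric oxide synthase, had at most 0.647 CPM in any of the 6 libraries.

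Of 19 angiogenic factors tested, 9 were lower (47.4%), 2 were higher (10.5%, Vegfa and Pf4) and 8 did not pass. The study drew attention to 5 transcripts on these same libraries, so that their direction is not independent evidence. All 5 were lower in TRAP1 KO. Ccl3, a chemokine of monocytes, was at 149, 167 and 152 CPM in WT and at 34.3, 42.2 and 38.6 CPM in TRAP1 KO (-2.02 ± 0.11, adjusted p = 4.60e-14). Pdgfa, a growth factor of mesenchymal cells, went from 71.9, 73.6 and 75.0 CPM to 36.1, 34.7 and 36 CPM (-1.05 ± 0.09). The collagenase Mmp8 was at 276, 314 and 309 CPM against 141, 162 and 181 CPM (-0.89 ± 0.10). Mmp10, stromelysin 2, was low, with 0.811, 1.04 and 2.16 CPM against 0.374, 0.122 and 0.255 CPM (-2.36 ± 0.67, adjusted p = 0.00489). It did not pass without WT replicate 3 (-1.83). Tnf is given above. A further list held genes of angiogenesis proteins assayed in medium. Of 14 such genes tested, 2 were higher and 4 lower. By that assay, the study reported release of these proteins by Mφ with TRAP1 in MPNST-CM. For TRAP1 KO Mφ it reported a profile close to that of MPNST-CM alone. In RNA, the 2 increases had the opposite direction to that report and the 4 decreases the same. Released protein was not measured in these libraries. Besides Vegfa, the increase was that of Pf4, platelet factor 4, from 4183, 4221 and 3924 CPM to 9509, 11416 and 11588 CPM (1.40 ± 0.11). The decreases were those of Cxcl10 (below), Col18a1, the precursor of endostatin (-0.88 ± 0.12), Vegfb (-0.49 ± 0.10) and Timp1 (-0.54 ± 0.20). Groups overlapped for Timp1, which did not pass without WT replicate 1 (-0.39), WT replicate 3 (-0.53), TRAP1 KO replicate 1 (-0.51) or TRAP1 KO replicate 2 (-0.41). Spp1, osteopontin, was at 2316, 3998 and 3960 CPM in WT and at 2893, 3905 and 4059 CPM in TRAP1 KO (0.08 ± 0.17, adjusted p = 0.750), and Hgf at 19.2, 23.4 and 26.1 CPM against 20.3, 27.2 and 22.8 CPM (0.03 ± 0.12). Cxcl1, Ang, Adamts1, Angpt1 and Ptx3 did not pass either, and of these Adamts1 had groups that did not overlap, with TRAP1 KO lower. In the 27-library fit, 5 of the 9 decreases passed and those of Timp1, Col18a1, Vegfb and Mmp8 did not, nor did the increase of Pf4.

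Chemokines moved in both directions, and the increase of Cxcl3 was among the 12 largest over all genes of at least 10 CPM in a group. Of 11 CXC ligands 5 were higher (45.5%) and 3 lower (27.3%). Of 12 CC ligands 4 were higher (33.3%) and 2 lower (16.7%), against 19.1% and 19.2% over all genes. Cxcl3, a neutrophil attractant, was at 0.232, 3.69 and 2.70 CPM in WT and at 28.7, 60.0 and 53.9 CPM in TRAP1 KO (4.41 ± 0.39, adjusted p = 2.63e-08), and Ppbp, the precursor of the platelet basic protein, at 75.0, 76.5 and 83.5 CPM against 557, 652 and 689 CPM (3.01 ± 0.18). Cxcl10, a chemokine of T cells induced by interferons, fell from 45.9, 64.1 and 54.6 CPM to 4.49, 4.50 and 5.86 CPM (-3.47 ± 0.18, adjusted p = 1.06e-14). Among receptors, Cx3cr1, the fractalkine receptor, fell from 50.4, 48.2 and 45.5 CPM to 6.49, 5.84 and 5.48 CPM (-3.01 ± 0.14), and the formyl peptide receptors Fpr1 (2.43 ± 0.37) and Fpr2 (2.18 ± 0.21) rose. Il1rn, the antagonist of interleukin 1, fell (-1.75 ± 0.11) while Il1b rose. Several others of these 12 are given next. Thbs1, thrombospondin 1, an inhibitor of angiogenesis, was at 124, 155 and 160 CPM in WT and at 1511, 2243 and 1881 CPM in TRAP1 KO (3.68 ± 0.14, adjusted p = 2.35e-16). The coagulation factor F5 went from 16.2, 15.4 and 10.2 CPM to 438, 417 and 419 CPM (4.93 ± 0.16, adjusted p = 2.30e-18). Serpinb2, the plasminogen activator inhibitor 2, rose by 3.56 ± 0.20, Aqp9, a channel for glycerol and other solutes, by 3.79 ± 0.19, and Plac8 by 3.18 ± 0.35. In the 27-library fit, Thbs1 and Ppbp did not pass, and 1 of the CXC ligands was higher and 1 lower.

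Interferon-stimulated genes moved in both directions, more of them up. Of 42 tested, 16 were higher (38.1%, against 19.1% over all genes) and 5 lower (11.9%, against 19.2%), with a median of 0.16. In the 27-library fit 0 were higher and 0 lower. Irf7, a transcription factor of this response, was at 122, 111 and 106 CPM in WT and at 301, 323 and 315 CPM in TRAP1 KO (1.47 ± 0.10), and Ifi44 (1.63 ± 0.13) and Ifi213 (1.56 ± 0.12) rose. Cmpk2, a mitochondrial nucleotide kinase, went from 79.9, 75.7 and 77.6 CPM to 38.7, 38.4 and 38.2 CPM (-1.02 ± 0.10), and Xaf1 fell (-1.65 ± 0.20). Slfn1, a Schlafen gene, had the largest increase in the list (4.30 ± 0.28), from at most 1.62 CPM in WT. Slfn4, of the same family but not in the list, rose by 3.78 ± 0.45, and neither passed in the 27-library fit. Class I antigen presentation was higher in 7 of 18 genes and lower in 2 (median 0.58). H2-K1 was at 1005, 934 and 926 CPM in WT and at 1758, 2176 and 2128 CPM in TRAP1 KO (1.08 ± 0.09), and B2m, the shared light chain, at 3183, 4601 and 4179 CPM against 7447, 8784 and 8810 CPM (1.07 ± 0.12). Of 12 genes of class II presentation and costimulation 5 were higher and 0 lower, and 1 was higher in the 27-library fit. Cd86, a costimulatory ligand, rose from 13.8, 21.4 and 18.9 CPM to 74.9, 94.6 and 101 CPM (2.32 ± 0.15) and did not pass in the 27-library fit, whereas Ciita, the class II transactivator, had overlapping groups (0.16, adjusted p = 0.674).

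Of 33 complement, scavenger and Fc receptor genes 15 were higher (45.5%) and 6 lower (18.2%), against 19.1% and 19.2% over all genes. The lectin Clec4n rose from 244, 209 and 213 CPM to 951, 1021 and 981 CPM (2.15 ± 0.09), and C1qa, a chain of complement C1q, from 88.8, 69.5 and 77.0 CPM to 191, 210 and 201 CPM (1.35 ± 0.11). The efferocytosis receptor Axl (-1.49 ± 0.10), the HDL receptor Scarb1 (-1.30 ± 0.09) and Itgax, CD11c (-1.49 ± 0.10), fell. Clec4n and Itgax did not pass in the 27-library fit. Of 33 macrophage transcription factors 13 were higher (39.4%) and 6 lower (18.2%). Id3, an inhibitor of DNA binding needed for some tissue macrophages, fell from 20.8, 17.4 and 17.9 CPM to 0.624, 0.973 and 1.53 CPM (-4.15 ± 0.23), and Egr2 fell by 2.12 on the log2 scale. Fosl2 (1.75 ± 0.10), Klf4 (1.47 ± 0.12) and Fos (1.35 ± 0.16) rose. Of 24 genes induced by IL-4, 9 were higher (37.5%) and 4 lower (16.7%). Mgl2, a lectin, rose from 1.16, 1.27 and 1.51 CPM to 11, 10.6 and 9.42 CPM (2.96 ± 0.24). Dcstamp, a protein of cell fusion, fell by 2.66 on the log2 scale. Matrix metalloproteinases and coagulation genes (7 higher and 10 lower of 26), integrins and adhesion molecules (5 and 9 of 28), galectins and S100 proteins (3 and 6 of 14) and lysosomal genes (13 and 8 of 41) had members in both directions, against 19.1% higher and 19.2% lower over all genes. Mmp12, the macrophage elastase, fell from 505, 655 and 608 CPM to 181, 236 and 242 CPM (-1.42 ± 0.11), and Ctsl, cathepsin L, rose from 2353, 3718 and 3421 CPM to 4962, 6122 and 6630 CPM (0.90 ± 0.14).

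**Figure D3:**
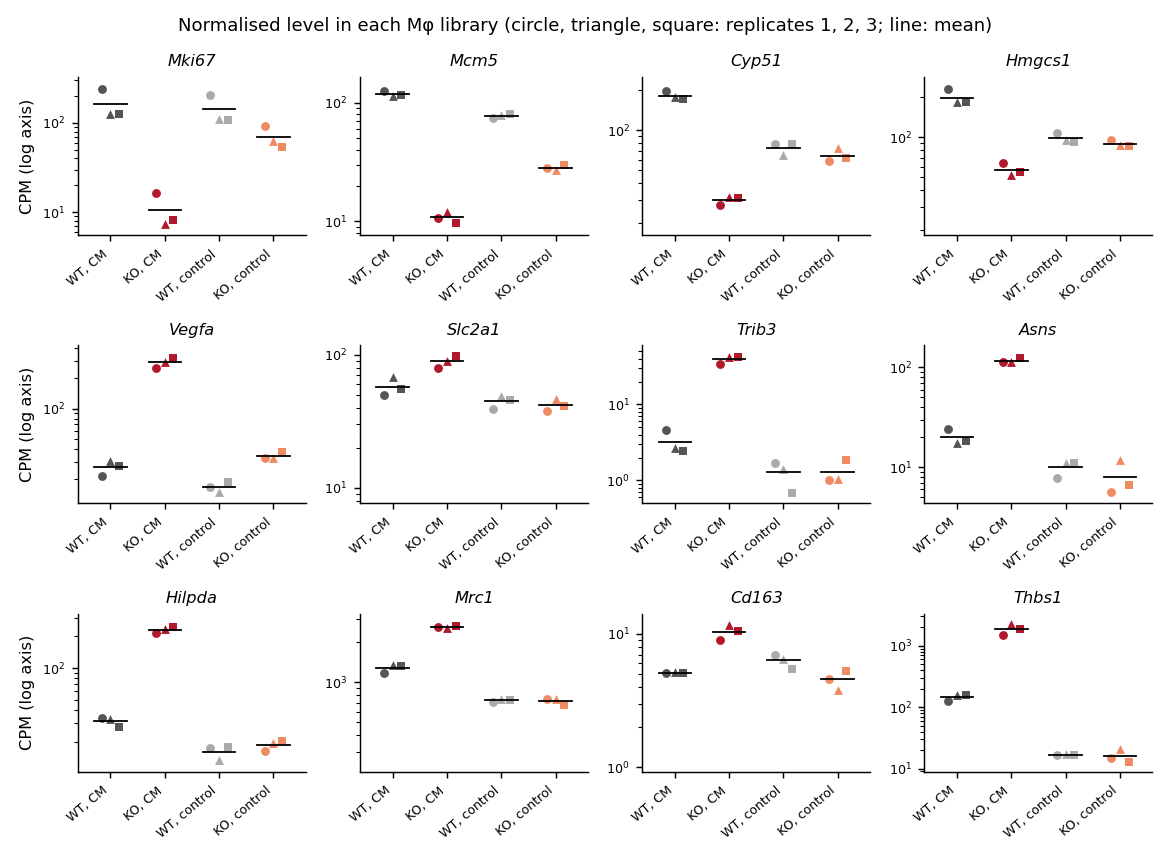
Normalised level in CPM (log axis) of 12 genes in each Mφ library, with WT and TRAP1 KO in MPNST-CM (CM) and in control medium, 3 libraries each (circle, triangle and square are replicates 1, 2 and 3; the line is the mean). In MPNST-CM the genotypes do not overlap for any of the 12 genes. In control medium they do not overlap for Mki67, Mcm5 and Vegfa, with smaller distances, and for Cd163, which is lower in TRAP1 KO there.

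Whether these differences depended on the tumor medium was tested with Mφ in control medium, 3 libraries per genotype that the comparison above did not use. There 2261 genes (16.6%) were called, 1176 higher (8.64%) and 1085 lower (7.97%). Of the genes called in both media, 1212 had the same direction and 330 the opposite, so that the shared calls of 1 direction made up 23.3% of those in MPNST-CM and 53.6% of those in control medium. The interaction of genotype and medium, which tests the difference between the differences, was called in 2683 genes (19.7%; 11.5% toward a lower and 8.17% toward a higher level in TRAP1 KO in MPNST-CM), of which 2213 had been called in MPNST-CM with an interaction in the same direction. For cell cycle genes the decrease was present in control medium and larger in MPNST-CM. Of 37 replication genes 35 were lower in control medium (median -1.25), and the interaction was called in 35, each with a larger decrease in MPNST-CM. Of 29 mitosis genes 26 were lower in control medium (median -1.02), and the interaction was called in 29. Mki67, which varied more between replicates, did not pass in control medium (-1.02, adjusted p = 0.0770). Mcm5 was at 77.6 CPM in WT and 28.3 CPM in TRAP1 KO in control medium (-1.46). For sterol genes the decrease was hardly seen in control medium, where 2 of 23 were lower (median -0.09), and 21 had an interaction, all with a larger decrease in MPNST-CM. Lpl was at 8361 CPM in WT and 8010 CPM in TRAP1 KO in control medium (-0.06, adjusted p = 0.693), with an interaction of -2.45 (adjusted p = 1.55e-14).

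Among HIF-1 targets 5 of 40 were higher and 3 lower in control medium, against 8.64% and 7.97% of all genes. The interaction was called toward a higher level in MPNST-CM in 21 (8.17% of all genes). Vegfa was at 16.8 CPM in WT and 34.1 CPM in TRAP1 KO in control medium (1.02, adjusted p = 5.18e-07). Slc2a1 did not pass there (-0.09, adjusted p = 0.690) and had an interaction of 0.72 (adjusted p = 8.62e-04), whereas Mmp9, which rose in both media, had none that passed (0.55, adjusted p = 0.112). Of the integrated stress response, 6 of 23 genes were higher and 3 lower in control medium, with 13 interactions toward a higher level in MPNST-CM. Of 42 interferon-stimulated genes, 29 were higher in control medium (69%, against 8.64% of all genes) and 2 lower, with a median of 0.53. Their interactions were called toward a lower level in MPNST-CM in 11 and toward a higher level in 5 (11.5% and 8.17% of all genes). Some genes moved in opposite directions in the media. Cxcl10 was at 96.3 CPM in WT and 221 CPM in TRAP1 KO in control medium (1.20), Ccl3 at 84.1 and 145 CPM (0.78), and Acod1 at 25.1 and 58.4 CPM (1.22), each higher in TRAP1 KO where in MPNST-CM it was lower. Pf4 went the other way, with 871 CPM in WT and 344 CPM in TRAP1 KO in control medium (-1.34). Mmp8 fell in both media, and more in control medium (-2.52, interaction 1.63, adjusted p = 4.09e-09). With all 27 libraries in the fit 653 interactions with the medium were called in place of 2683.

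**Figure D4:**
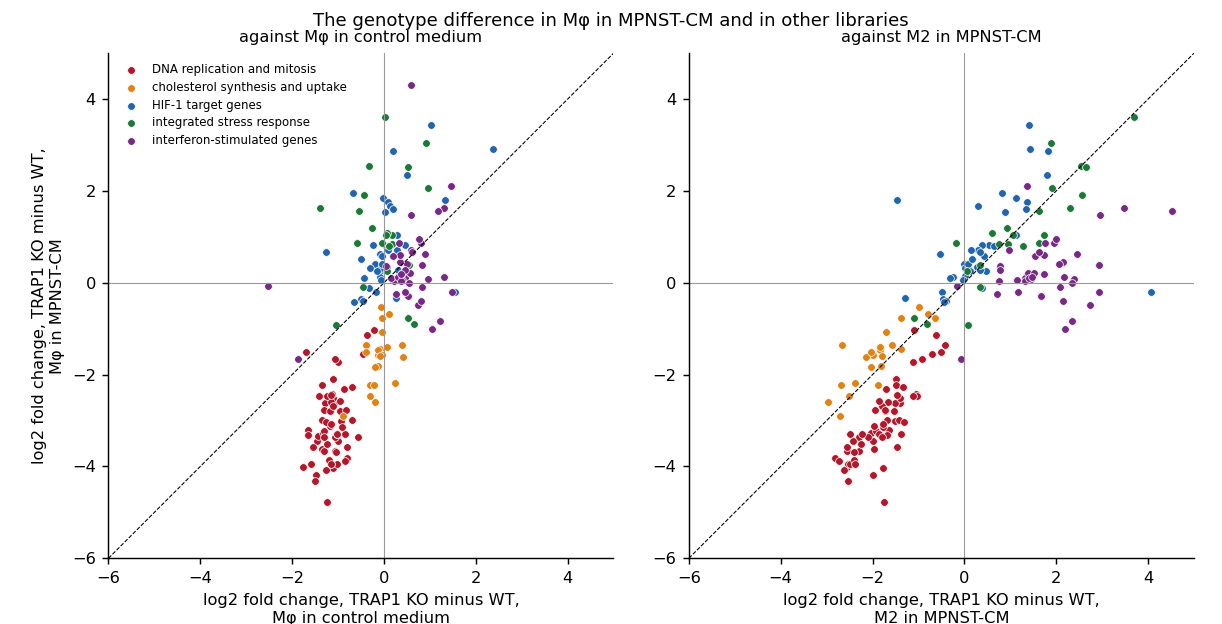
Log2 fold change of TRAP1 KO over WT in Mφ in MPNST-CM (y axis) against that in Mφ in control medium (left, x axis) and in M2 cells in MPNST-CM (right, x axis). Each point is a gene of 5 lists, and the dashed line marks equal values. Sterol genes lie close to 0 on the left x axis and nearer the line on the right, nearly all cell cycle genes lie below the line in both panels, and most interferon-stimulated genes lie to the right of the line in the right panel.

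The same comparison in M2 cells, which had received 10 ng/ml of IL-4 over 24 h before MPNST-CM, called 4627 genes (34%), 17.2% higher and 16.8% lower. Of the genes called in both cell types 3157 of 3239 had the same direction, which is 60.6% of the calls in Mφ and 68.2% of those in M2. The interaction of genotype and cell type was called in 978 genes (7.18%), 425 (3.12%) toward a higher and 553 toward a lower level in TRAP1 KO Mφ, and in 1605 without replicate 1 of any group. Sterol genes fell in both cell types, with 22 of 23 lower in M2 (median -1.88), and the stress response rose in both (15 of 23 in M2, median 1.05). Cell cycle genes fell more in Mφ. Of 37 replication genes 36 were lower in M2 (median -1.52), and 32 had an interaction, all with a larger decrease in Mφ. Of 42 interferon-stimulated genes, 38 were higher in M2, with 36 interactions toward a lower level in Mφ (4.06% of all genes). Rsad2, viperin, was at 471, 440 and 420 CPM in WT Mφ and at 251, 246 and 253 CPM in TRAP1 KO Mφ (-0.83 ± 0.08), while in M2 it was higher in TRAP1 KO (2.35). Of genes used as RT-qPCR markers or induced by IL-4, Arg1 (-1.47 in M2, interaction 3.27, adjusted p = 2.14e-04) and Clec10a (-0.18 in M2, interaction 2.04, adjusted p = 9.53e-09) were higher in TRAP1 KO Mφ but not in TRAP1 KO M2, and Vegfa rose in both and more in Mφ (interaction 2.04, adjusted p = 5.18e-10). With all 27 libraries in the fit 130 interactions with the cell type were called. The other batch holds 1 library each of 3 groups, none of them Mφ in MPNST-CM, so that no difference can be computed within it.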

How the data were processed

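RNA of bone marrow-derived Mφ was read with QuantSeq 3′ FWD libraries on a NextSeq500 (75 bp single reads). Per the labels, the authors used Trimmomatic, HISAT2, SAMtools and featureCounts with the mm39 build, and the counts they deposited are whole reads per gene and library, not normalized. The strand setting of the counting is not given in the sources used here, so that reads of overlapping genes may be shared. Levels are used here to compare a gene between libraries, not genes with each other. The table has 5 further columns whose names fit none of the described libraries, and these were left out.

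Genes were filtered with edgeR's filterByExpr (minimum count 10, total 15), scaled with TMM and tested with edgeR 4.0.16 in R 4.3.3 (glmQLFit and glmQLFTest, limma 3.58.1) on the 24 libraries of batch 1, which share 1 estimate of spread over 8 groups of 3. P-values were adjusted over all 13614 genes. Script steps were tested on simulated data. Deviations of same-numbered libraries of the compared groups correlated at r = 0.473, 0.207 and 0.151 across genes. Pairs with other numbers ranged from -0.37 to 0.254 (mean -0.132), so that only replicate 1 lay outside their range. The replicate number was also fitted as a block. Other alternatives were RLE size factors, DESeq2 1.42.0, no filter, only the compared groups, all 27 libraries, glmTreat, a prior count of 2 and leaving out libraries.

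The comparison and the gene lists were chosen with earlier results of these data known. Named genes are Trap1, the preset core members of each list, up to 6 called members per list with the largest change and at least 10 CPM in the higher group, the markers and angiogenic factors of the study, the 12 highest and 12 lowest genes overall with at least 10 CPM and no overlap, and the 6 largest interactions in each direction. Uhrf1, Gapdh, Eno1 and the neighbours of Trap1 were named after their values were seen. Counts cover sampling of reads only. Some genes that meet these rules are not reported here.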

Additional observations from a re-analysis of the deposited data

Results flagged for a closer look

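The difference between TRAP1 KO and WT differed with the medium in 2683 genes by the test of the interaction (edgeR's quasi-likelihood test, adjusted p under 0.05). The values below are interactions on the log2 scale, the difference in MPNST-CM minus that in control medium. The 6 most negative, among genes of at least 10 CPM in a group, were those of Dnmt3aos (-4.75), Cxcl10 (-4.67), Adra1a (-4.21), Fabp4 (-3.96), Nptx1 (-3.93) and Pif1 (-3.78). The 6 most positive were those of Aqp9 (5.49), Cox6a2 (5.18), Ppbp (4.92), F5 (4.42), Ftl1-ps1 (4.31) and Il1r2 (4.14). Of these 12, the positive values of Aqp9, Cox6a2, Ppbp, F5, Ftl1-ps1 and Il1r2 and the negative value of Dnmt3aos did not pass with all 27 libraries in the fit. Ftl1-ps1 is annotated as a pseudogene of the ferritin light chain, so that its reads may be shared with other copies.

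The difference also depended on the cell type in 978 genes. As Mφ minus M2, both in MPNST-CM, the 6 most negative interactions were those of Cmpk2 (-3.21), Ifit3 (-3.21), Ifit3b (-3.17), Rsad2 (-3.17), Ifit2 (-3.14) and Cxcl10 (-3.13). All but Cxcl10, a chemokine induced by interferons, are interferon-stimulated genes of antiviral defence. The 6 most positive were those of Gm30605 (4.35), Mgl2 (4.18), Tuba8 (3.69), Ocstamp (3.47), Arg1 (3.27) and Ccl24 (3.10). Cmpk2, Ifit3, Ifit3b, Rsad2, Ifit2, Gm30605, Ocstamp and Ccl24 did not pass with all 27 libraries in the fit. Ifit3 and Ifit3b are near-identical copies, and their reads may be shared.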

How the results depend on the processing

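In MPNST-CM 5207 genes were called, against 3097 with all 27 libraries and no batch term, 3297 with batch as a covariate and 763 with glmTreat. The genes called higher numbered 1296, 1396 and 189 under these settings and 1698 with only the compared groups, against 2598, and glmTreat left 574 of 2609 lower. In control medium the 2261 calls became 854, 843 and 93, the 2683 medium interactions 653, 777 and 481, and the 978 cell type interactions 130, 146 and 80, or 1605 without replicate 1 of any group. Every gene called in MPNST-CM both in the main fit and under an alternative kept its direction. Single libraries left out gave 4427 to 4929 calls in MPNST-CM. DESeq2 called 5008 genes. The replicate block called 5693, of which 5177 were shared, and of 200 called named genes it lost Ndufa1 alone (0.75 on the log2 scale without the block, adjusted p = 0.0318).

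Genes that had not passed changed sign under some settings, at low levels or with a fold change near 0. Without replicate 1 of any group Cdkn1a was at 0.0431, Spp1 at -0.0194 and Hgf at -0.00463, and with only the compared groups Hgf was at -0.0108. With single libraries left out, Cdkn1a ranged from -0.24 to 0.28, Spp1 from -0.14 to 0.22, Hgf from -0.0889 to 0.14, Nos2 from -0.75 to 0.70, Ciita from -0.0555 to 0.44 and Hmox1 from -0.30 to 0.0151. The cause of these changes was not tested. Depths of 7688771 to 8452051 reads limit what can be said of genes under 1 CPM, such as Nos2, Angpt1 and Ptx3.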
